A study of Mus musculus with 32 samples.

Results

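The comparison described here is that of mesenteric arteries from mice overexpressing endothelin-1 for 3 months with those of mice carrying the Cre recombinase alone. The long-term libraries were chosen by genotype and time in their labels, and comprised 15 of the 30 libraries with values: 8 labelled ieET-1 and 7 labelled ieCre. An eighth ieCre animal of the labels was not analysed here. Both groups were male mice aged 10 to 12 weeks at treatment, which were given subcutaneous tamoxifen on 5 days (1 mg/kg daily) and killed 3 months later. Control (ieCre) mice express a Cre recombinase that tamoxifen activates, driven by the Tie2 promoter and so active in endothelium, and differ from ieET-1 mice in lacking the inducible endothelin-1 transgene. Tamoxifen and the recombinase were thus shared by both groups. Tie2 is also known to be active in part of the blood cell lineage. Arteries were freed of fat and veins before RNA was taken, and each library carried its own animal number. Small RNA was sequenced, so that the transgene itself was not measured here and the genotype labels could not be checked against it.

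Endothelin-1 is a vasoconstrictor peptide secreted by endothelial cells, and acts on receptors of the underlying smooth muscle and of the endothelium. MicroRNAs (miRNAs) are short RNAs cut from the arms of a hairpin precursor, the 5p arm or the 3p arm. The arm that is loaded into the silencing complex pairs with target messages through its seed, bases 2 to 8, so that miRNAs with a common seed have overlapping targets. In the artery wall miR-143 and its cluster partner miR-145a are known for the contractile state of smooth muscle, and miR-126 for endothelium. miR-29 is known to restrain collagen messages, and miR-15/16 to target the message of Vegfa.

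The mature sequences of the miRNAs on which the results turn are shown with the seed in capitals, as given by RefSeq on GRCm38.p6. They are the leading miRNAs of the genotype comparison, the partner arms or relatives set beside them, and 2 miRNAs that differed by range of animal number. miR-143-3p, the most abundant miRNA, is named only.
miR-194-5p: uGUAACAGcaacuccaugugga
miR-872-3p: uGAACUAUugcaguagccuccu
miR-339-3p: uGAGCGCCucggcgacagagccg
miR-138-5p: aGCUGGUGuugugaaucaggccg
miR-221-5p: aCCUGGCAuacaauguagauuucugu
miR-221-3p: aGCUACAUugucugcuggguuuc
miR-222-3p: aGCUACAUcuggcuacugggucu
miR-19a-3p: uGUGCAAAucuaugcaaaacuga
miR-19b-3p: uGUGCAAAuccaugcaaaacuga
miR-27a-5p: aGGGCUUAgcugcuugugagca
miR-27a-3p: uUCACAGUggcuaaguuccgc
miR-10a-5p: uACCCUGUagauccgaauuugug
miR-10b-5p: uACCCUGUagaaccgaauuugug
miR-24-3p: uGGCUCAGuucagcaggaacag
miR-676-3p: cCGUCCUGagguuguugagcu
miR-181a-5p: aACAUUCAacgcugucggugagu
miR-9-5p: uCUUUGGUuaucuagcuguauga
miR-155-5p: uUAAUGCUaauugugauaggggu

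Several of these miRNAs come from within other genes in GENCODE M21. miR-10b-5p lies at chr2:74726074-74726096 on the plus strand, in introns of Hoxd3 and Hoxd4. miR-872-3p (chr4:94665206-94665227, plus strand) lies in an intron of Ift74, miR-676-3p (chrX:100381151-100381171, plus strand) in an intron of Eda, and miR-19a-3p (chr14:115044048-115044070, plus strand) in an exon of the noncoding Mir17hg. miR-221-5p (chrX:19146344-19146369, minus strand) and miR-27a-5p (chr8:84208685-84208706, plus strand) lie in no other annotated gene. miR-194-5p has a copy at chr1:185313325-185313346, within an intron of 2010103J01Rik on the same strand and of Iars2 on the opposite strand, and another at chr19:6264658-6264679. Reads of such copies cannot be told apart. Of the deposited values themselves, the build was not stated.

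Library depth and composition were compared first. The long-term libraries held 3697246 to 31666722 miRNA reads, with a mean of 11100000 ± 6606000 (SD, n = 7) in ieCre and 15300000 ± 10140000 (n = 8) in ieET-1. Arterial markers were abundant: miR-143-3p took 50.9% ± 12.2 (SD, n = 15) of the reads, and miR-126-3p had medians of 639.6 in ieCre and 513.1 in ieET-1 (normalized values). Of markers of other tissues, miR-122-5p of liver had at most 7 reads in a library and miR-206-3p of skeletal muscle had 0 reads in all 15. Other miRNAs of striated muscle were present in each library, miR-133a-3p at 376.2 to 803.5 (median 507.8) and miR-1a-3p at 11.7 to 82.7. The libraries correlated with each other at 0.927 to 0.994 (Pearson, log2 values), with medians of 0.973 among ieCre pairs, 0.964 among ieET-1 pairs and 0.968 between the groups. In a tissue of many cell types, fewer cells of a type and less of a miRNA per cell cannot be told apart. Animal numbers fell into the 8000s (3 ieCre and 6 ieET-1 mice) and the 9000s (4 ieCre and 2 ieET-1), and the labels do not say what the ranges stand for.

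The main question was which arterial miRNAs differed between genotypes at 3 months. A miRNA was called when its adjusted p in limma was below 0.05, which held for 0 of 354 (0.0%). A nominal p, that is without adjustment, was under 0.05 for 20 (5.65%). On the recovered reads edgeR gave 0 calls with 27 nominal ones, and DESeq2 0 with 25. The log2 difference was above 0 for 173 miRNAs (48.9%), with a median of -0.01, which was 0.31 when libraries were scaled to total miRNA reads. The groups overlapped for each of the 354 miRNAs (0.0% without overlap), and the 95% interval of the difference lay within 2-fold in either direction for 273 (77.1%). None of the genotype differences described next passed the threshold, and the smallest adjusted p in limma was 0.688. Counts of ieET-1 libraries above or below the ieCre median are given for miRNAs mostly picked by small p. How often such counts arise over all 354 was not counted.

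Among miRNAs with more in ieET-1 arteries, miR-194-5p, an epithelial miRNA of intestine and liver, had the smallest p. Its normalized values were 4.79, 9.62 and 21.35 in ieCre (lowest, median and highest of 7) and 9.84, 24.8 and 76.7 in ieET-1 (of 8). All 8 ieET-1 libraries lay above the ieCre median, and animal 8135 held the highest value. The log2 difference was 1.03 ± 0.33 (SE), with a 95% interval of 0.349 to 1.704. miR-138-5p, known from neurons, had 0.631, 6.18 and 16.45 in ieCre and 3.67, 14.2 and 50.2 in ieET-1. Here 7 of 8 ieET-1 libraries lay above the ieCre median, and the difference of 1.25 ± 0.57 was the highest of all miRNAs tested.

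Less abundant miRNAs with more in ieET-1 were miR-872-3p and miR-339-3p. miR-872-3p had 0.946, 1.83 and 3.24 in ieCre against 1.76, 4.23 and 4.92 in ieET-1 (log2 difference 0.74 ± 0.28). miR-339-3p had 0.631, 1.06 and 3.65 in ieCre against 2.23, 2.92 and 5.30 in ieET-1 (0.66 ± 0.26), with all 8 ieET-1 libraries above the ieCre median. These levels rest on few reads, from 3 to 166 per library for miR-872-3p and from 2 to 161 for miR-339-3p. The miRNAs next in order were miR-187-3p (0.54), miR-31-5p (0.71) and miR-15a-3p (0.50, adjusted p = 0.805 in limma), the last of which was listed with 0 reads in at least 1 ieCre library.

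The most abundant miRNA with a low p and less in ieET-1 was miR-10b-5p, encoded among the Hoxd genes. It had 214800, 352300 and 501000 in ieCre and 97550, 208300 and 351900 in ieET-1. No ieET-1 library reached the ieCre median, although the groups overlapped. The log2 difference was -0.77 ± 0.31, with a 95% interval of -1.41 to -0.13. As a share of all miRNA reads, which does not depend on the scaling, miR-10b-5p took 23.8% ± 5.22 in ieCre and 18.4% ± 2.73 in ieET-1. The exact permutation p of this difference was 0.0261 (two-sided), or 0.131 after adjustment over 5 library measures, a test that passed when ieCre animal 8149 was left out (difference -6.92 percentage points). The related miR-10a-5p, with the same seed, took 4.97% ± 2.38 and 4.99% ± 3.43.

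miR-221-5p, from a cluster of endothelium and smooth muscle, had 0.350, 7.85 and 11.4 in ieCre and 0.351, 2.17 and 6.39 in ieET-1. All 8 ieET-1 libraries lay below the ieCre median, but the lowest library of all was a control, animal 9491. The log2 difference was -1.17 ± 0.41. Its partner arm miR-221-3p, which holds most of the reads of the precursor, differed by 0.14 ± 0.20, and miR-222-3p, which shares the seed of that partner, by -0.09 ± 0.19.

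miR-19a-3p, whose polycistron Mir17hg is known for proliferation, had 3.44, 6.27 and 10.7 in ieCre and 0.351, 3.02 and 5.79 in ieET-1. No ieET-1 library reached the ieCre median, and the log2 difference was -0.89 ± 0.31. Its more abundant sister miR-19b-3p, with the same seed, was at 105.5 ± 13.02 (SD, n = 7) in ieCre and 93.4 ± 22.7 (n = 8) in ieET-1. From the miR-23/27/24 clusters of the vessel wall, miR-27a-5p had 0.700, 2.13 and 5.99 against 0, 0.937 and 2.21 (log2 difference -0.75 ± 0.28). miR-24-3p, a more abundant member of the same clusters, had 3095, 3695 and 5396 against 1484, 2809 and 3860 (-0.53 ± 0.22), with 1 of 8 ieET-1 libraries above the ieCre median. Most members of these clusters went the other way. Of 9 tested, 6 were above 0 and 3 below, with a median log2 difference of 0.04. With a term for the range of animal number the median was 0.165, again with 6 above 0.

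miR-99b-5p had the most negative difference of all miRNAs tested, -1.69 ± 0.75, with a large error. Its libraries ranged from 2018 to 40050 in ieCre and from 584.4 to 27340 in ieET-1. The median was 12490 in ieCre and 3520 in ieET-1, and 1 of 8 ieET-1 libraries lay above the ieCre median. The lowest values of miR-99b-5p and of miR-221-5p lay in the same 5 libraries, of ieCre animal 9491 and ieET-1 animals 8134, 8150, 8151 and 8152. Others with a low p and less in ieET-1 were miR-3068-3p (-0.50), miR-3096a-5p (-0.65), miR-1981-5p (-0.46), miR-582-3p (-0.81), miR-328-3p (-0.77) and miR-9-3p (-0.64).

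**Figure D1:**
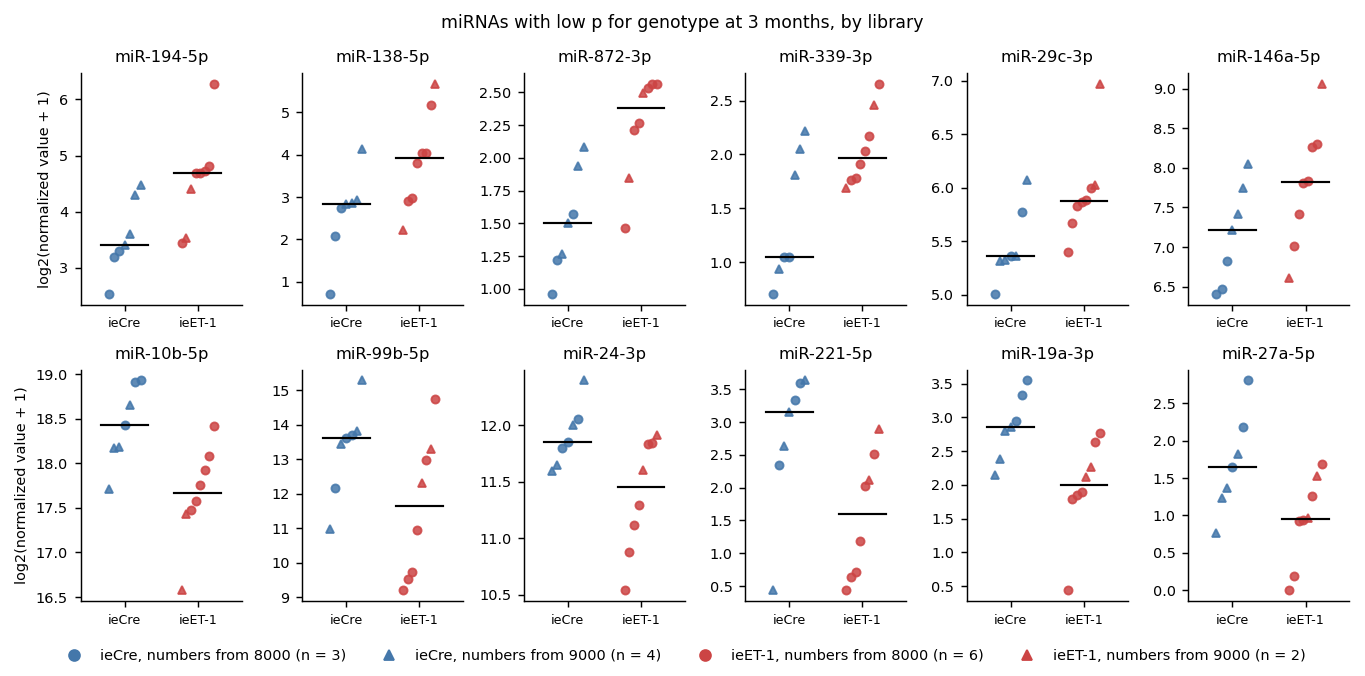
Normalized values of 12 miRNAs in the 15 long-term libraries, as log2(value + 1) on the vertical axis, by genotype on the horizontal axis; circles are animals numbered in the 8000s, triangles those in the 9000s, and black lines are group medians. The groups overlap in every panel, and all 8 ieET-1 points of miR-10b-5p lie below the ieCre median line.

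The comparison was then read family by family, starting with smooth muscle and endothelium. In the cluster of miR-143 and miR-145a 0 of 5 members was called, 1 was above 0, and the median log2 difference was -0.14 against -0.01 over all miRNAs. miR-143-3p had 384300, 641600 and 2253000 in ieCre and 193700, 654800 and 1221000 in ieET-1. The groups overlapped, and the difference was -0.31 ± 0.37 (adjusted p = 0.948 in limma), a sign that turned when the libraries were scaled to total reads (0.11). miR-145a-5p, the other abundant guide of the cluster, differed by -0.08 ± 0.22. For miR-126-3p, the endothelial miRNA that restrains inhibitors of growth factor signalling, the difference was -0.09 with a 95% interval of -0.63 to 0.45. Its partner miR-126-5p had medians of 11420 and 11450.

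Families that bear on Vegfa and on endothelin-1 had no called member. Of 7 miR-15/16 members none was called and 5 were above 0, the median being 0.04. miR-16-5p, its most abundant member, had medians of 2427 in ieCre and 2018 in ieET-1 (log2 difference 0.11 ± 0.28), and miR-15a-5p differed by 0.01 ± 0.22. miR-125a-5p and miR-125b-5p, reported in cultured endothelial cells to act on the endothelin-1 message, differed by -0.50 ± 0.37 and -0.39 ± 0.26. In the miR-99/100 and miR-125 list as a whole 0 of 11 members was called, 4 were above 0, and the median was -0.13, with values down to the -1.69 of miR-99b-5p.

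The fibrosis-related miR-29 family had all 5 tested members above 0 and none called, with a median of 0.10. miR-29c-3p had medians of 40.0 in ieCre and 57.6 in ieET-1, with 8 of 8 ieET-1 libraries above the ieCre median (log2 difference 0.50 ± 0.25, adjusted p = 0.805 in limma). miR-29a-3p had 220.1 and 280.2 (0.35 ± 0.25) and miR-29b-3p 25.9 and 24.8. The fibroblast and injury list of miR-199, miR-214 and miR-21 lay above 0 for 7 of 9 members, with 0.15 as its median. Its abundant injury miRNA miR-21a-5p differed by 0.01 ± 0.24, while the scarce partner arm miR-21a-3p had medians of 2.62 and 5.65 (1.02 ± 0.50).

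Of the Hox-encoded miR-10 and miR-196 rows 1 of 6 lay above 0, with -0.41 as the median. Beside miR-10b-5p, miR-196b-5p had medians of 32.75 and 22.8, with no ieET-1 library above the ieCre median (log2 difference -0.40 ± 0.29). The miR-181 family, known from endothelium and lymphocytes, lay below 0 for all 6 members, with -0.24 as its median. miR-181a-5p, its most abundant member, had medians of 11460 and 8449 (-0.49 ± 0.35). Neither family had a called member. Relative to the median of all miRNAs, the Hox list lay at -0.40 to -0.17 and the miR-181 list at -0.23 to -0.14 over 4 scalings of the libraries, while scaled to total reads their own medians were 0.01 and 0.17.

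Markers of epithelium and pancreas had medians above that of all miRNAs. In the miR-200 family 5 of 6 members were above 0 with a median of 0.61, in the list of miR-192, miR-194 and miR-215 3 of 3 with 0.30, and in that of miR-216, miR-217 and miR-375 4 of 4 with 0.56, and none was called. Single libraries stood apart: miR-200b-3p was at 297.5 in ieET-1 animal 8135 and at 0.187 to 39.0 in the other ieET-1 libraries, against 0 to 15.4 in ieCre. Without animal 8135 the miR-200 median was 0.03, with 3 of 6 members above 0. The median of the miR-192 list was 0.07 without ieET-1 animal 8134, and that of the miR-216 list 0.33 without ieET-1 animal 9490. With the range term the medians of miR-200 and of the miR-216 list were 0.64 and 0.48, but -0.09 and 0.01 without animal 9490. That of the miR-192 list was 0.07 with the term, with 2 of 3 members above 0, and -0.17 without ieCre animal 8088. The sensory and epithelial list of miR-183, miR-96 and miR-182 had 2 of 3 members above 0 and none called. Its median was 0.56, and 0.27 without animal 8135. With the range term it was 0.46, and 0.12 without animal 9490. The summed level of 13 epithelial and pancreatic markers ranged from 704.6 to 5287 in ieCre and from 551.0 to 12160 in ieET-1. miR-194-5p belongs to this list, and the part of the other markers in its difference was not tested. In animal 8135 miR-194-5p was at 76.7 and miR-192-5p at 9999. In the other 7 ieET-1 libraries miR-194-5p was at 9.84 to 27.02.

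No member of the blood, immune and nerve lists was called. The erythroid list had a median of -0.26 over 6 rows, in which miR-486-5p is listed in a pair of near-identical rows with medians of 45770 in ieCre and 23750 in ieET-1 (log2 difference -1.12 ± 0.60). The list also holds miR-144, and 2 of its 6 rows were above 0 and 4 below. Among those above was miR-451a, with a difference of 0.69 ± 0.47. Of 8 leukocyte miRNAs 3 were above 0 (median -0.06), and miR-146a-5p, an inhibitor of inflammatory signalling, had medians of 147.5 and 224.3 (0.63 ± 0.32). The neural list had 5 of 9 members above 0 with a median of 0.16, the distal Dlk1-Dio3 cluster 12 of 28 with -0.06, and the let-7 family 9 of 17 with 0.03.

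**Figure D2:**
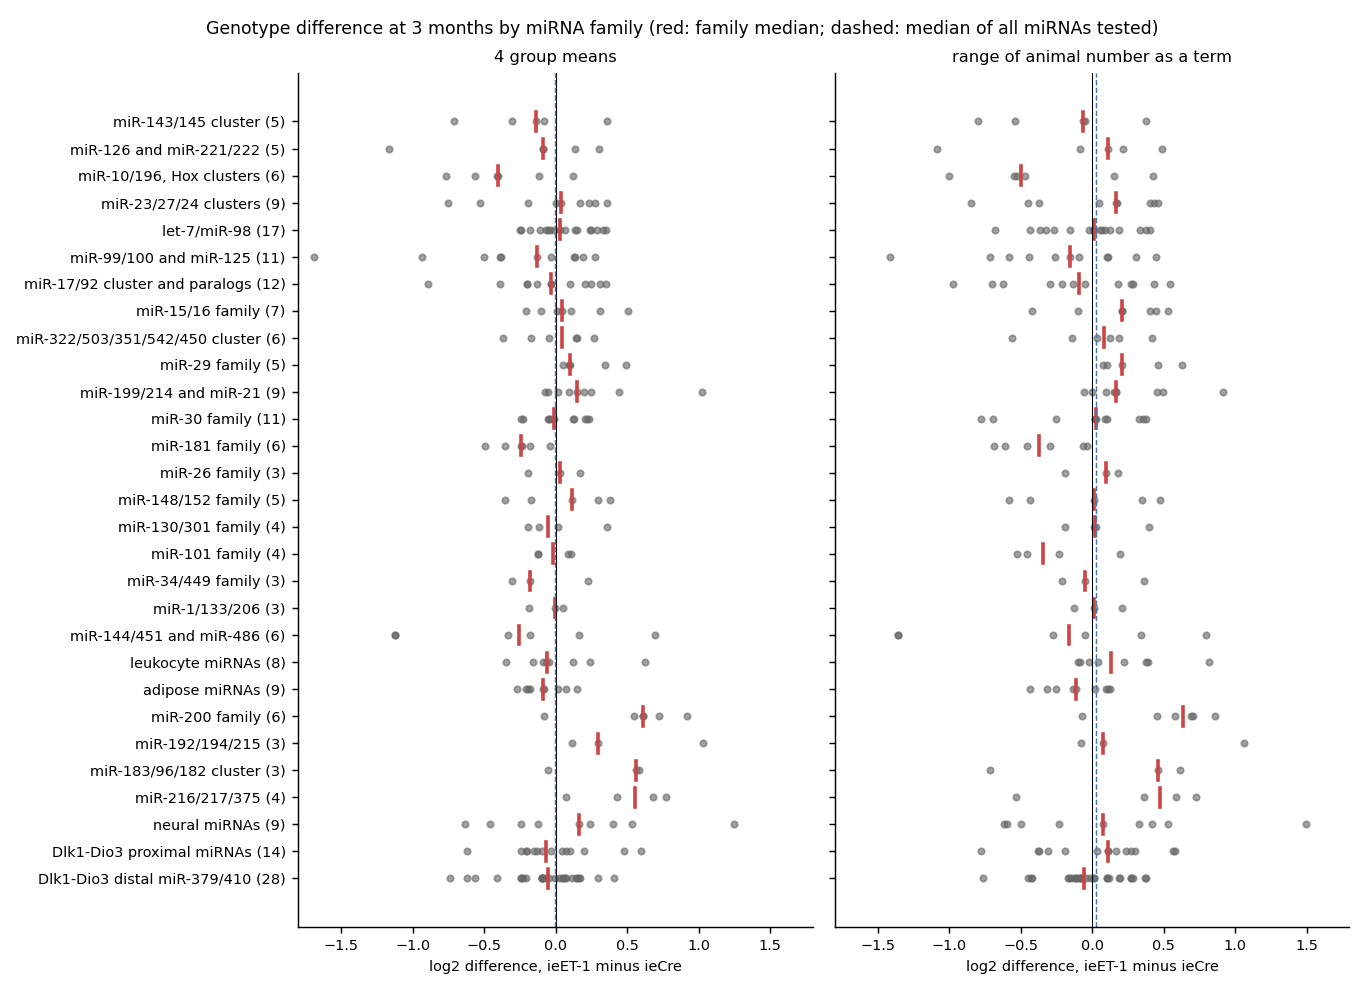
Log2 difference between ieET-1 and ieCre on the horizontal axis for each tested miRNA (grey) of 29 families or lists, with the family median (red bar) and the median of all 354 miRNAs (dashed line), from the fit of 4 group means (left) and from that holding a term for animal number range (right). Most family medians lie near 0. The medians of the Hox list and of miR-181 lie below 0 in both panels. Those of miR-200 and of the pancreatic list lie above 0 in both. Fits with a library left out are not drawn. Without ieET-1 animal 8135 the miR-200 median was 0.03 in the fit of 4 group means. Without ieET-1 animal 9490 the medians of miR-200 and of the pancreatic list were -0.09 and 0.01 with the range term.

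The range of animal number was compared next, since its shares were unequal between the genotypes. With genotype in the fit, 26 of 354 miRNAs passed between the ranges in limma (7.34%), of which 8 were higher (2.26%) and 18 lower (5.08%) in the 9000s. A nominal p under 0.05 was held by 100 (28.2%). No miRNA separated the ranges without overlap (0.0%). edgeR called 12 higher and 29 lower and DESeq2 15 higher and 39 lower, and each of these sets held all 26. Scaled to the total of miRNA reads, the median difference of all miRNAs was 0.72 in place of 0.09, and 184 passed in limma, 2 of them lower and the rest higher, 10 being among the 26. The number called ranged from 16 without ieET-1 animal 9490 to 59 without ieET-1 animal 8136, and was 39 without ieCre animal 9491 or without ieET-1 animal 9489.

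miR-143-3p of smooth muscle fell from 566000, 837000 and 2253000 in the 8000s to 193700, 404000 and 641600 in the 9000s (log2 difference -1.52 ± 0.29, adjusted p = 0.00354 in limma). Its share of miRNA reads was 58.1% ± 9.37 (SD, n = 9) in the 8000s and 40.0% ± 6.09 (n = 6) in the 9000s. The exact permutation p was 0.0026 (two-sided), or 0.013 after adjustment over 5 library measures. The lowest share in the 8000s, 36.8% in ieET-1 animal 8136, lay within those of the 9000s. Within ranges the share was close between genotypes, at 59.1% ± 6.45 in ieCre and 57.6% ± 11.1 in ieET-1 in the 8000s, and at 40.8% ± 7.17 and 38.2% ± 4.76 in the 9000s.

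Other miRNAs lower in the 9000s included miR-9-5p, a neural miRNA, which fell from a median of 474.9 to 195.0 (log2 difference -1.54 ± 0.25, adjusted p = 0.00318 in limma). miR-182-5p of the sensory and epithelial cluster fell from a median of 818.4 to 266.4 (-2.04 ± 0.36). In the miR-101 family 3 of 4 members were lower, against 5.08% of all miRNAs, led by miR-101a-3p, which fell from 2008 to 1017 (medians, -1.27 ± 0.26). Scaled to total reads the median of this list was -0.06 in place of -1.005, or -0.78 relative to all miRNAs, and miR-101a-3p was at -0.31 (adjusted p = 0.34 in limma). miR-676-3p fell from 58.9 to 30.9 (-1.35 ± 0.23). let-7i-5p (-1.33), miR-98-5p (-0.81), miR-25-3p (-1.31), miR-92a-3p (first row, -0.80), miR-148a-3p (-0.90), miR-30e-3p (-1.67) and miR-30c-2-3p (-1.44) were lower as well. The last pair are arms of the miR-30 family whose guides were not called.

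The 8 miRNAs higher in the 9000s were of several families. miR-155-5p of activated leukocytes rose from 5.68, 8.92 and 13.3 in the 8000s to 11.9, 18.6 and 25.6 in the 9000s (log2 difference 0.98 ± 0.21, adjusted p = 0.00785 in limma). The ranges overlapped by a single library of each, 13.3 in ieET-1 animal 8135 against 11.9 in ieCre animal 9491. miR-142-5p, the hematopoietic miRNA, rose from a median of 95.5 to 160.8 (0.78 ± 0.21), so that 2 of 8 leukocyte miRNAs were called higher, against 2.26% of all miRNAs. miR-199a-5p of fibroblasts rose from 143.9 to 216.7 (0.77 ± 0.17), miR-140-5p of cartilage from 42.4 to 73.9 (0.70 ± 0.21), and miR-16-5p from 1564 to 2832 (0.92 ± 0.23). miR-484 and the near-identical rows miR-28a-5p and miR-28c made up the remainder. Scaling moved with the ranges: the factor that the deposited values imply for a library was 0.659 ± 0.188 and 1.09 ± 0.393 (exact permutation p = 0.0052, adjusted 0.013). Its part in these differences was not tested. Mean reads were 12080000 in the 8000s and 15240000 in the 9000s, with overlapping libraries (exact permutation p = 0.508, adjusted 0.551).

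**Figure D3:**
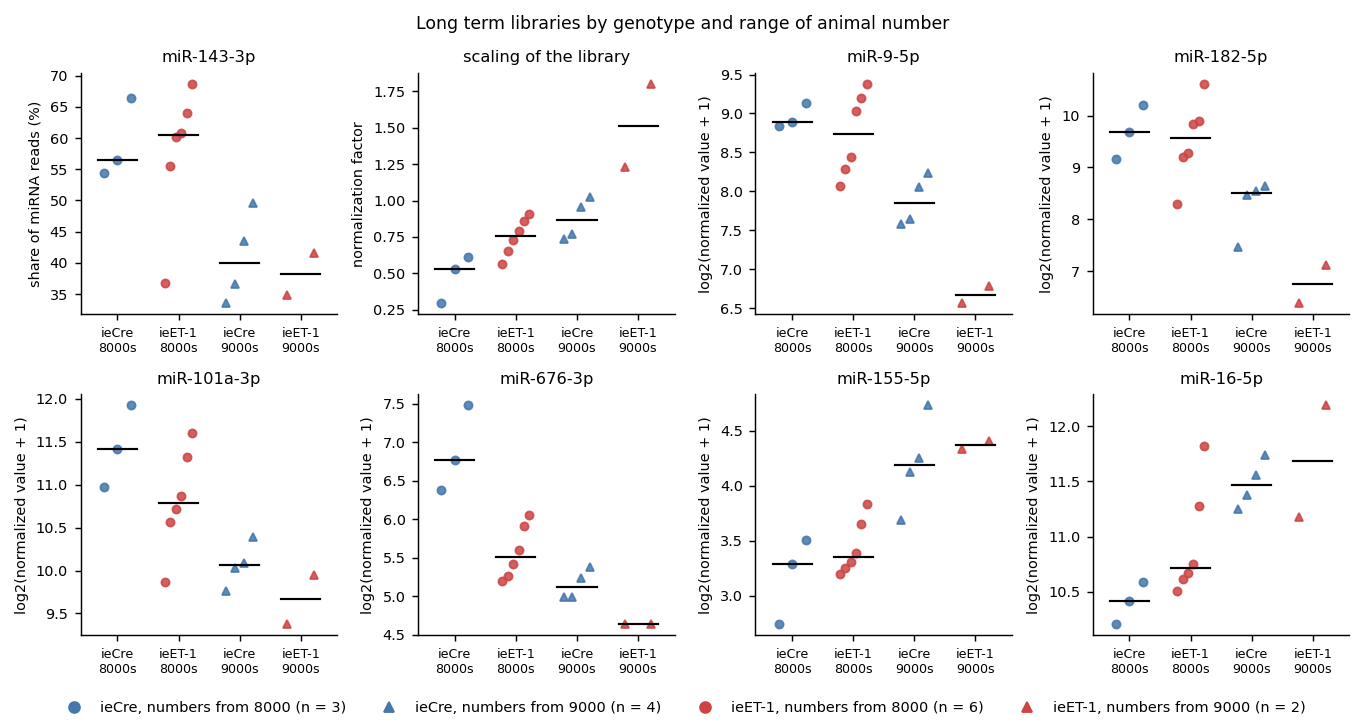
Share of miR-143-3p in all miRNA reads (%), the implied normalization factor, and log2(value + 1) of 6 miRNAs called between ranges, on the vertical axes, for the 15 long-term libraries by genotype and range of animal number on the horizontal axes; points are libraries and lines medians of 3, 6, 4 and 2 libraries from left to right. The medians of the 9000s lie below those of the 8000s for miR-9-5p, miR-182-5p, miR-101a-3p and miR-676-3p and above them for miR-155-5p and miR-16-5p in both genotypes.

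Once a term for the range was in the fit, 0 miRNAs differed by genotype in limma (0.0%), while 42 had a nominal p under 0.05 (11.9%). The lowest adjusted p in limma was 0.134. The difference was above 0 for 197 miRNAs (55.6%). edgeR gave 0 with 46 nominal ones. DESeq2 called 6, of which miR-138-5p was higher in ieET-1 and miR-10b-5p, miR-676-3p, miR-676-5p, miR-1839-5p and miR-1843a-5p were lower. Scaled to the total of miRNA reads, the median of all miRNAs was 0.54, and limma called 69 higher and 0 lower. Without ieET-1 animal 9489 limma called 2, both higher.

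With the term, the difference of miR-10b-5p went from -0.77 to -1.002 ± 0.243 (adjusted p = 0.134 in limma). Scaled to total reads it was -0.27 (adjusted p = 0.294 in limma), or -0.81 relative to the median of all miRNAs. Quantile scaling gives 0.0, since the miRNA ranked 2 in each long-term library. Its share of reads differed by -5.39 percentage points over all long-term libraries and by -4.29 within ranges (exact permutation p = 0.0667, adjusted 0.167). The difference was -0.88 among animals of the 8000s alone and -1.18 among those of the 9000s alone. miR-676-3p, an intronic miRNA of Eda, went from -0.55 to -0.99 ± 0.22 (adjusted p = 0.134), and its partner arm miR-676-5p from -0.43 to -0.69. In the 8000s the 3 ieCre libraries of miR-676-3p held 82.2 to 177.2 and the 6 ieET-1 libraries 35.6 to 65.4. In the 9000s the 4 ieCre libraries held 30.8 to 40.5 and the 2 ieET-1 libraries 23.87 and 23.99. The genotypes thus did not overlap within either range, which held in the same direction for 6 of 354 miRNAs (1.69%), 5 of them lower in ieET-1 (1.41%). The others were miR-10b-5p, miR-181a-5p, miR-1839-5p and miR-676-5p, lower, and miR-148b-3p, higher. Overlap was counted on the deposited values alone, whose implied factor also differed between genotypes within ranges. Over all settings of the fit with the range term, the difference ran from -1.10 to -0.27 for miR-676-3p. For miR-676-5p it ran from -0.81 to -0.03.

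For miR-143-3p the term moved the difference from -0.31 to -0.80 ± 0.28 (adjusted p = 0.23 in limma). Scaled to total reads the latter was -0.07, or -0.61 relative to the median of all miRNAs. miR-181a-5p went from -0.49 to -0.69 ± 0.21 (adjusted p = 0.18), with its seed family at -0.67. miR-138-5p went from 1.25 to 1.496 ± 0.526, miR-872-3p from 0.74 to 0.80, miR-339-3p from 0.66 to 0.80, miR-29c-3p from 0.50 to 0.63, and miR-148b-3p from 0.38 to 0.47 ± 0.15, none of which passed. Among families, the Hox list had a median of -0.50 and the miR-181 list of -0.38 with 0 of 6 members above 0, and the miR-29 list of 0.21 with 5 of 5 above 0, against 0.03 over all miRNAs. Scaled to total reads, where the median of all miRNAs was 0.54, the Hox list was at 0.22 with 5 of 6 above 0 and the miR-181 list at 0.34 with 6 of 6, while the miR-29 list was at 0.89 with 5 of 5.

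The implied normalization factor itself differed between genotypes within ranges. It was 0.479 ± 0.165 (SD, n = 3) in ieCre and 0.749 ± 0.129 (n = 6) in ieET-1 in the 8000s, and 0.872 ± 0.139 (n = 4) and 1.51 ± 0.403 (n = 2) in the 9000s. The exact permutation p within ranges was 0.00159, or 0.00794 after adjustment over 5 measures, against 0.213 over all long-term libraries. The scaling of a library and the level of its abundant miRNAs cannot be told apart in these values, so that the sign of a small difference rests on the scaling chosen.

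**Figure D4:**
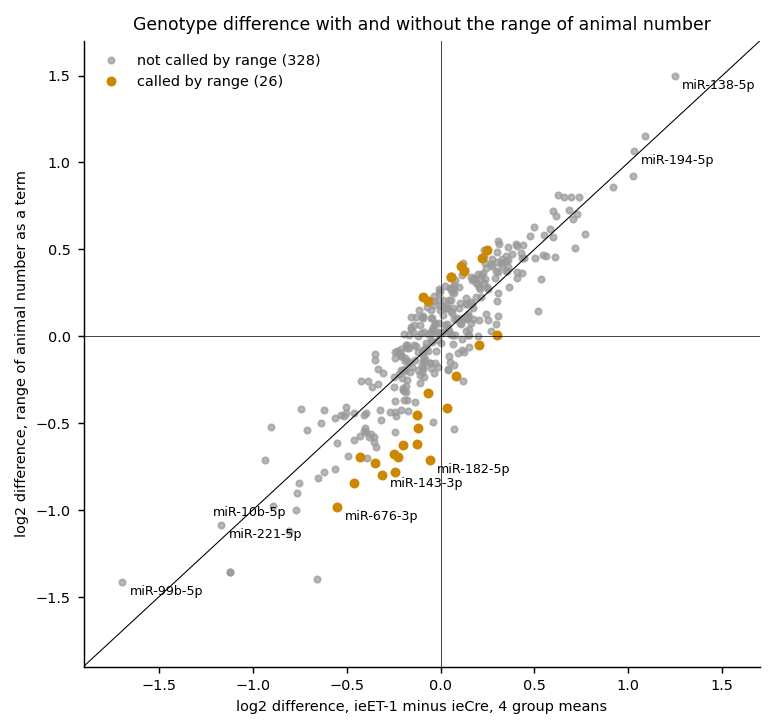
Log2 difference between ieET-1 and ieCre from the fit of 4 group means (horizontal axis) and from the fit that adds animal number range (vertical axis) for 354 miRNAs; orange points are the 26 called between ranges and the diagonal marks equal values. miR-143-3p, miR-182-5p and miR-676-3p lie below the diagonal, while miR-194-5p, at 1.03 and 1.07, lies near it.

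Whether the genotype difference depended on the range was tested by an interaction. In limma 0 of 354 passed (0.0%), 41 had a nominal p under 0.05 (11.6%), and the lowest adjusted p was 0.13. edgeR gave 0 with 38 nominal ones and DESeq2 0 with 41. The leading one was miR-411-5p of the distal Dlk1-Dio3 cluster, at 149.6 ± 47.1 (SD, n = 3) in ieCre and 292.0 ± 68.9 (n = 6) in ieET-1 in the 8000s, but 414.4 ± 50.4 (n = 4) and 243.4 ± 51.4 (n = 2) in the 9000s. It passed without ieCre animal 8089 or without ieET-1 animal 8135, the single call in each case. Genotype differences of opposite sign in the ranges were also seen for miR-215-5p (1.18 and -1.59), miR-129-5p (0.97 and -0.63) and miR-455-5p (0.75 and -0.82), and the interaction had an adjusted p of 0.199 for each in limma. miR-194-5p differed by 1.76 in the 8000s and 0.02 in the 9000s (interaction adjusted p = 0.35 in limma), and miR-221-5p by -1.84 and 0.04 (adjusted p = 0.457 in limma). The cell of 2 ieET-1 libraries in the 9000s limits all of these. The signs within ranges were read on the deposited values alone, and a higher implied factor lowers such values. That factor was 0.479 in ieCre and 0.749 in ieET-1 in the 8000s, and 0.872 and 1.51 in the 9000s. Its part in the signs was not tested. The interaction of miR-411-5p ran from -1.98 to -1.28 over all settings.

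The ratio of the arms of a precursor depends on the scaling of a library only through the pseudocount, which weighs on scarce arms, and was compared for 84 precursors with both arms tested. Without the range term 0 passed in limma (0.0%), and 7 had a nominal p under 0.05 (8.33%). The difference was below 0 for 51 (60.7%). The lowest p belonged to miR-221, whose log2 ratio of 5p to 3p was -4.95, -3.15 and -2.64 in ieCre and -5.49, -4.45 and -3.65 in ieET-1. All 8 ieET-1 libraries lay below the ieCre median. The difference was -1.30 ± 0.35 (adjusted p = 0.0722 in limma), and without ieCre animal 9491, whose ratio was the lowest control, 3 precursors were called. With ieET-1 animal 8135 left out 2 were called, and with ieET-1 animal 9489 left out 1. miR-27a had ratios of -7.67, -6.97 and -5.52 against -8.67, -7.94 and -7.07 (-1.03 ± 0.31). miR-339 (-0.87 ± 0.28), miR-362 (-0.70), miR-1843a (-0.82), miR-125a (-0.77) and miR-21a (-1.01) also had less of the 5p arm relative to the 3p arm in ieET-1. Their adjusted p in limma was 0.096 for miR-339, 0.406 for miR-125a and 0.575 for miR-21a. Precursors with a difference above 0 are not listed here, so that the common direction comes from the choice of names.

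With a range term, an alternative fit of the arm ratios, 5 of 84 precursors passed in limma (5.95%). A nominal p under 0.05 was held by 15 (17.9%), and 46 lay below 0 (54.8%). The ratio of 5p to 3p was lower in ieET-1 for miR-221 (-1.31 ± 0.38), miR-27a (-1.25 ± 0.32), miR-1843a (-1.13 ± 0.29) and miR-10b (-1.15 ± 0.33) and higher for miR-143 (1.17 ± 0.34), each with an adjusted p of 0.042. In miR-10b and miR-143 this is a lower ratio of the abundant arm, 5p and 3p respectively, to the scarce arm. The abundant arm takes nearly all reads of these precursors, so that its share hardly moves and the pseudocount weighs on the scarce arm. The part of each arm in the difference was not tested. The ratio of miR-10b was 14.5, 15.5 and 17.5 in ieCre and 13.2, 15.2 and 16.0 in ieET-1, and the groups overlapped widely before the range was taken into account. These calls were not stable: with a pseudocount of 0.5 there were 0. The number was 4 without ieCre animal 8089 or 9486 or ieET-1 animal 9489, 3 without ieCre animal 9491, 1 without ieET-1 animal 8135, and 0 without any 1 of ieCre animals 8088, 8149, 9485 and 9487 or ieET-1 animals 8134, 8136, 8150, 8151, 8152 and 9490. Between ranges the arm ratios of 14 precursors differed (16.7%), 25 had a nominal p under 0.05 (29.8%), and 35 lay lower in the 9000s (41.7%). Among the 14 were miR-10b (-1.54 ± 0.33), miR-143 (1.58 ± 0.34), miR-30e (2.10 ± 0.40), miR-101a (1.54 ± 0.32) and miR-9 (-1.96 ± 0.41), with adjusted p values of 0.00283 for miR-30e and 0.003 for the others in limma. That number was 5 without ieET-1 animal 9490, 6 without ieCre animal 8149 and 9 without ieCre animal 9485 or 9486.

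**Figure D5:**
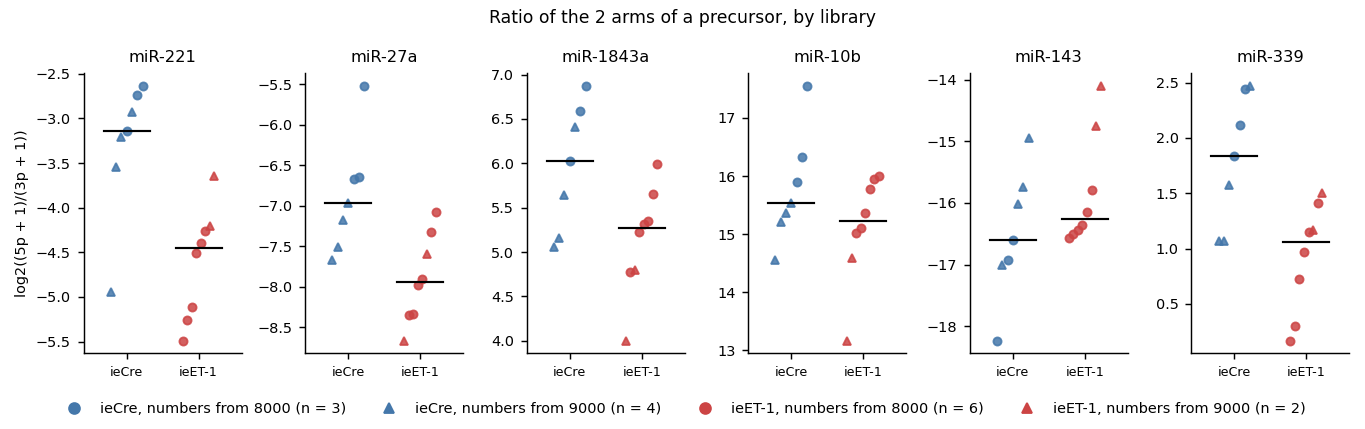
Log2 ratio of the 5p to the 3p arm, log2((5p + 1)/(3p + 1)), on the vertical axis for 6 precursors in the 15 long-term libraries by genotype on the horizontal axis; circles are the 8000s, triangles the 9000s, and black lines group medians. For miR-221, miR-27a, miR-1843a and miR-339 all 8 ieET-1 points lie below the ieCre median, and for miR-143 all 8 lie above it. The precursors drawn were picked by small p, and how many of all 84 have such a pattern was not counted.

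Summed over miRNAs with a common seed, 0 of 235 seeds passed in limma (0.0%) and 17 had a nominal p under 0.05 (7.23%). With the range term 0 passed (0.0%) and 26 were nominal (11.1%). Without ieCre animal 9491, 1 seed was called. The seed ACCCUGU of miR-10a-5p and miR-10b-5p had medians of 433000 in ieCre and 268500 in ieET-1 (log2 difference -0.71 ± 0.27, adjusted p = 0.527), and -0.88 with the range term (adjusted p = 0.108). The seed ACCCGUA of miR-99a-5p, miR-99b-5p and miR-100-5p had medians of 15440 and 5725 (-1.31 ± 0.63, adjusted p = 0.665). The ACAUUCA seed of the 4 miR-181 guides differed by -0.47 ± 0.34, or by -0.67 with the term (adjusted p = 0.164).

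Finally, the genotype difference at 3 months was set against that at 16 days after tamoxifen. In the test of that change 0 of 354 passed in limma (0.0%), 24 had a nominal p under 0.05 (6.78%), and 193 lay above 0 (54.5%). edgeR gave 0 with 28 nominal ones and DESeq2 0 with 36. A pair of short-term libraries of different genotype held near-identical values (r = 0.9999), and without both, limma again gave 0 with 25 nominal ones. miR-194-5p had the smallest p, its difference at 3 months exceeding that at 16 days by 1.45 ± 0.47 (adjusted p = 0.602 in limma), and miR-27a-5p followed at -1.19 ± 0.39. For arm ratios the same test gave 0 of 84 (0.0%), with 8 nominal ones (9.52%) and 45 below 0 (53.6%).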

How the data were processed

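Small RNA of mesenteric arteries was sequenced in 30 libraries of 4 groups, of which the 15 long-term ones are described. Libraries were made with the TruSeq small RNA kit from 1 µg of RNA, per the labels' protocols. Tools listed in the submitters' processing notes, without their roles, were STAR 2.3.1, edgeR 3.6.8, bcl2fastq 1.8.4, R 3.2.3 and FastQC. The values deposited by the authors are a normalized signal per miRNA and library. In each library 100% of values were whole multiples of the value of 1 read (within 0.001), so that reads were recovered. The value of 1 read was 0.0257 to 0.351 at long term. The factor implied by the deposited signal was 0.295 to 1.90 over the 30 libraries. A change in abundant miRNAs and a change of scaling are hard to separate in such values. Precision of scarce miRNAs is set by library depth. Groups came from genotype and time in the labels.

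Rows that reached a value of 1 in 8 or more libraries were tested, 354 of 870 (99.991% of reads). In R 4.3.3, limma 3.58.1 was fitted, with a trend on intensity, to log2(value + 1), and two-sided p-values were adjusted by Benjamini-Hochberg, with 0.05 as the threshold. A fold on this scale understates changes of low miRNAs. The genotype comparison used 4 group means over 30 libraries, and fits with the range of animal number used the 15 long-term libraries. Arm ratios used log2((5p + 1)/(3p + 1)) without trend. Library measures used exact permutation tests. Since animal numbers differ, libraries were treated as separate mice, and p-values reflect the spread among them.

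Among the alternatives, edgeR 4.0.16 by quasi-likelihood and DESeq2 1.42.0 were run on the recovered reads. Others changed the pseudocount (0.5 or 5), the filter (none, or 10) or the scaling (TMM, total or quantile), used array weights or a robust prior, kept single ranges, or left out each library. Further alternatives, chosen after seeing the data, were fits of other comparisons without libraries under 5000000 reads or without the near-identical short-term pair, the arm ratios by range and time, their alternatives within ranges, and permutation within ranges. The scripts were tested on simulated data. The lists, their members and the comparison were chosen with earlier results of these data known. The rule named up to 15 miRNAs per direction by smallest p for genotype and up to 8 for the other fits, and per list up to 4 by smallest p and 1 by highest mean. Partner arms and relatives set beside these were added after their values were seen. Rows sharing reads are uncertain: miR-1h-5p_250 and miR-n3 were equal in 100% of libraries and miR-299a-5p and miR-299b-5p in 96.7%, and miR-486-5p, miR-28a-5p/miR-28c and miR-1843a-5p/miR-1843b-5p were near copies. RefSeq sequences matched 300 of the 354 rows. Positions come from RefSeq and GENCODE M21 (both GRCm38). Python 3.11.15 with matplotlib 3.10.9 drew the figures. No build of the deposited values is given in the sources used here.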

Additional observations from a re-analysis of the deposited data

Results flagged for a closer look

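In 9 of 156 groups of 7 or 8 libraries tested for named miRNAs, arm ratios and 5 library measures, a single library lay far from the others of its group. Chance flags about 1 in 20 groups. On the log2(value + 1) scale, ieCre animal 9491 had the highest miR-187-3p of its group (2.28, the next at 1.42) and the lowest miR-221-5p (0.43, the next at 2.35). The same library had the lowest log2 arm ratio of miR-221 (-4.95, the next at -3.54). ieET-1 animal 8134 had the lowest miR-196b-5p (3.73, the next at 4.33) and the lowest miR-19a-3p (0.43, the next at 1.79), the latter from 1 read. ieET-1 animal 8135 had the highest miR-31-5p (4.27, the next at 2.20) and the highest miR-98-5p (8.52, the next at 7.54). ieET-1 animal 9490 had the highest miR-29c-3p (6.97, the next at 6.02), and ieCre animal 8149 the highest miR-486-5p (first row, 17.6, the next at 15.9). Animals 9491 and 8134 had the fewest reads of the long-term libraries, 3697246 and 3914624.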

How the results depend on the processing

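Of 98 named results, 90 kept their direction in each setting computed. The genotype count stayed at 0 in each setting, as did the count for genotype by time. With range as a term, the genotype count was 2 with the filter at 10, 69 scaled to all miRNA reads, 1 with quantile scaling and 6 with DESeq2, and 0 to 2 with a library left out. The count between ranges was 14 with no filter, 55 with the filter at 10, 49 with TMM, 184 scaled to all miRNA reads, 40 with quantile scaling, 90 with array weights, 41 with edgeR, 54 with DESeq2, 73 without libraries under 5000000 reads, and 16 to 59 with a library left out. All 26 were among those called by TMM, array weights, edgeR and DESeq2. The genotype-by-range count was 8 with no filter, 1 with array weights, and 0 to 1 with a library left out. With no filter the lowest adjusted p in limma was 1.33e-10, and the spread of the rows called there was not examined.

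For arm ratios the count was 1 with a pseudocount of 5, 5 with range as a term, 1 without libraries under 5000000 reads, and 0 to 3 with a library left out. Within ranges it was 0 with a pseudocount of 0.5, 1 without libraries under 5000000 reads, and 0 to 4 with a library left out, against 5. Between ranges it was 27 without libraries under 5000000 reads and 5 to 18 with a library left out, against 14. Seed families gave 0 to 1 with a library left out. The cause of these shifts was not tested.

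The genotype difference in log2 units took the opposite sign among the 9000s alone for miR-187-3p (-0.42) and miR-221-5p (0.037). That of miR-143-3p was 0.11 scaled to all miRNA reads, 0.0 with quantile scaling and 0.018 with array weights. With range as a term and scaling to all miRNA reads, miR-1839-5p was at 0.16 and miR-181a-5p at 0.039, and between ranges miR-148a-3p was at 0.061, miR-92a-3p (first row) at 0.15 and miR-98-5p at 0.14. That scaling moved the median of all miRNAs by construction, from -0.01 to 0.31 for genotype. Permuted within ranges, the genotype difference in the share of miR-143-3p was -1.88 percentage points and that of the implied factor 0.419. With a library left out the difference in the number of miRNAs with a value of at least 1 ranged from -6.08 to 1.43 and that of the implied factor from 0.114 to 0.291. The difference in the share of miR-10b-5p ranged from -6.919 to -4.291 percentage points, with an adjusted p below the threshold only without ieCre animal 8149. The fits without shallow libraries in the comparisons by range, the within-range arm ratios and the permutations within ranges were chosen after seeing the data. No paired analysis was possible because the animal numbers do not repeat between groups.

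Depth limits scarce miRNAs: miR-221-5p had as little as 1 read in a library, and miR-27a-5p 0. With 2 ieET-1 libraries in the 9000s, differences within that range are imprecise.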

Other observations

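The 5 long-term libraries with the lowest miR-221-5p were also the 5 with the lowest miR-99b-5p and the 5 with the lowest miR-100-5p, a comparison made after the values were seen. They were ieCre animal 9491 and ieET-1 animals 8134, 8150, 8151 and 8152. Their miR-221-5p was at 0.350, 0.351, 0.561, 1.27 and 0.647 in this order, the next library being at 3.08. Their miR-99b-5p, which shares a cluster with miR-125a, was at 2018, 1982, 737.5, 584.4 and 844.9, the next library being at 4579. Their miR-100-5p, which shares the seed of miR-99b-5p, was at 814.6, 980.8, 418.4, 404.9 and 513.5, the next library being at 1005. Of these libraries 4 are ieET-1 and 1 is ieCre, and recovered reads ranged from 3697246 to 13755029. The log2 ratio of the 5p to the 3p arm of miR-145a set the same 5 libraries apart, at 3.70, 3.63, 4.02, 3.56 and 3.93 in this order, against at most 1.45 in the other 10.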
